A study of Mus musculus with 8 samples.

Results

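The Notch receptors Notch1, Notch2, Notch3 and Notch4, the ligands Jag1, Jag2 and Dll1, and the targets Hes1, Hey1 and Nrarp were followed across RNA-seq of wild type and JunB cKO mice. These 10 genes, of 21441 gene symbols with a locus of their own in all tables, were taken from rows whose gene name equals the symbol, with 1 locus per symbol. JunB cKO mice (C57BL/6, JunB -/- in the labels) carried floxed JunB alleles and Cre recombinase under the K14 promoter, which is active in basal epidermal cells, so that dermal cells are not targeted. Wild type mice (C57BL/6) are JunB +/+ in the labels, and whether they carried Cre or floxed alleles is not given in the sources used here. The groups were keratinocytes freed with trypsin from untreated skin, skin biopsies taken 4 days after hair plucking, and skin biopsies taken 30 days after wounding. The labels give no age and no further allele or agent. Each library was made from RNA pooled over 3 samples of its group, as the methods of the study state. The labels list 1 library per genotype for keratinocytes and for plucked skin and 2 for wounds, but each table holds 1 value per genotype and gene. No difference reported here therefore has a replicate check, no test was run, and no spread between animals can be given.

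Notch receptors are membrane proteins that are activated by ligands on neighbouring cells. ADAM proteases and then gamma-secretase cleave the bound receptor, and the freed intracellular domain binds the DNA-binding protein Rbpj together with Mastermind coactivators to switch on targets such as the Hes and Hey repressors. In the epidermis Notch signaling is known for promoting the differentiation of keratinocytes that leave the basal layer, whereas Notch4 is best known from the endothelium of blood vessels and Notch3 also from the mural cells around them.

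The promoters of the 3 genes that differed by more than 2-fold in plucked skin are shown because JunB is a subunit of AP-1, a dimer that binds TGACTCA and its reverse complement TGAGTCA. Each sequence runs from 100 bases before to 25 bases after a RefSeq transcript start on GRCm38.p6, on the strand of the gene, and capitals mark an AP-1 match. RefSeq windows of 300 bases (250 before and 50 after the start) were matched for 8 of the 10 genes, in 9 windows.
Notch4 (chr17:34564195-34564319, plus strand): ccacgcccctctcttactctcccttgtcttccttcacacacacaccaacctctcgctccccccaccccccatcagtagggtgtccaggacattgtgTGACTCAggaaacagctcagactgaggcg
Dll1, downstream start (chr17:15375799-15375923, minus strand): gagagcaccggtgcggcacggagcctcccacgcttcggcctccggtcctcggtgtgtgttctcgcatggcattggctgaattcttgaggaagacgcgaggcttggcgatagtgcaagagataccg
Dll1, upstream start (chr17:15376908-15377032, minus strand): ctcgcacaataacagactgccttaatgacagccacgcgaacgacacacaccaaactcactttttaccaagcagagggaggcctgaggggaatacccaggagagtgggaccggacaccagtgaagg
Nrarp (chr2:25180658-25180782, plus strand): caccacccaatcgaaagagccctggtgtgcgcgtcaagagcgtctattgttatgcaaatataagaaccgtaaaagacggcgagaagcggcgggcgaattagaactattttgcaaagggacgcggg

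Among the 9 windows, 1 held the AP-1 letters on either strand. It was the Notch4 window, where TGACTCA lies from position -4 to position 3, counted with the first transcribed base as 1 and without a position 0. Of all 32851 RefSeq windows of this length, 1709 (5.20%) held the letters. The letters TGGGAA or, on the other strand, TTCCCA, the core that Rbpj binds, were in 0 of the 9 windows and in 25.6% of all windows. The targets Hes1 and Hey1 had no matched window, so their promoters were not searched for either set of letters. A match describes the letters in the window and is no evidence of binding. The windows are shorter than the promoter span searched in the study, so sites further from the start are not covered. By chromatin immunoprecipitation, the study reported JunB binding in the Notch1 and Notch4 promoters of wild type epidermal progenitor cells after plucking. A forward primer that the study lists for its Notch4 assays lies just before the AP-1 match in the printed Notch4 sequence. Binding was not examined here.

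Expression was measured as FPKM, the number of fragments scaled to transcript length and library size, which allows levels of different genes to be set side by side within a table. Differences are given as log2((JunB cKO + 1)/(wild type + 1)) of the FPKM, which understates the difference of genes with a low FPKM, and a gene or locus was called at 2-fold, that is at a log2 ratio of 1 or more or of -1 or less. The tables do not give read numbers, but the low values of short loci fall on whole multiples of what 1 read is worth. By these steps, 1 FPKM on a transcript of 1 kb stood for 13.5 reads in wild type and 3.92 reads in JunB cKO keratinocytes, for 13.0 and 10.3 reads in plucked skin, and for 34.5 and 32.2 reads in wounds. Read numbers below are estimates from these values and the length of the longest coding transcript. Intervals on a fold are exact 95% binomial intervals that cover counting error and not the spread between animals. The tables were normalized separately, so levels of different tables are given side by side and were not compared.

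Junb itself was lower in JunB cKO in each table. Keratinocytes had 268 FPKM in wild type against 31.4 in JunB cKO (log2 ratio -3.05), plucked skin 40.8 against 11.7 (log2 ratio -1.71) and wounds 33.4 against 15.4 (log2 ratio -1.06). Keratin and fibroblast markers fitted the keratinocyte label of the untreated pair, with the basal keratins Krt5 at 2592 and 2690.3 FPKM and Krt14 at 1212 and 1113 FPKM and the 6 fibroblast markers summing to 13.7 and 12.5 FPKM. Markers of other cells were present too. Leukocyte markers summed to 128 and 124 FPKM, mostly from Cd74 (118 and 108 FPKM). Melanocyte markers summed to 22.3 and 20.6 FPKM and those of the hair matrix and shaft list to 46.2 and 37.1 FPKM. The plucked pair carries keratinocyte as its tissue but a skin biopsy as its treatment, and the fibroblast markers summed there to 5109 FPKM in wild type against 1856 in JunB cKO. Plucked skin and wounds were thus treated as mixed tissue, in which fewer cells of a type and less RNA per cell cannot be told apart.

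**Figure D1:**
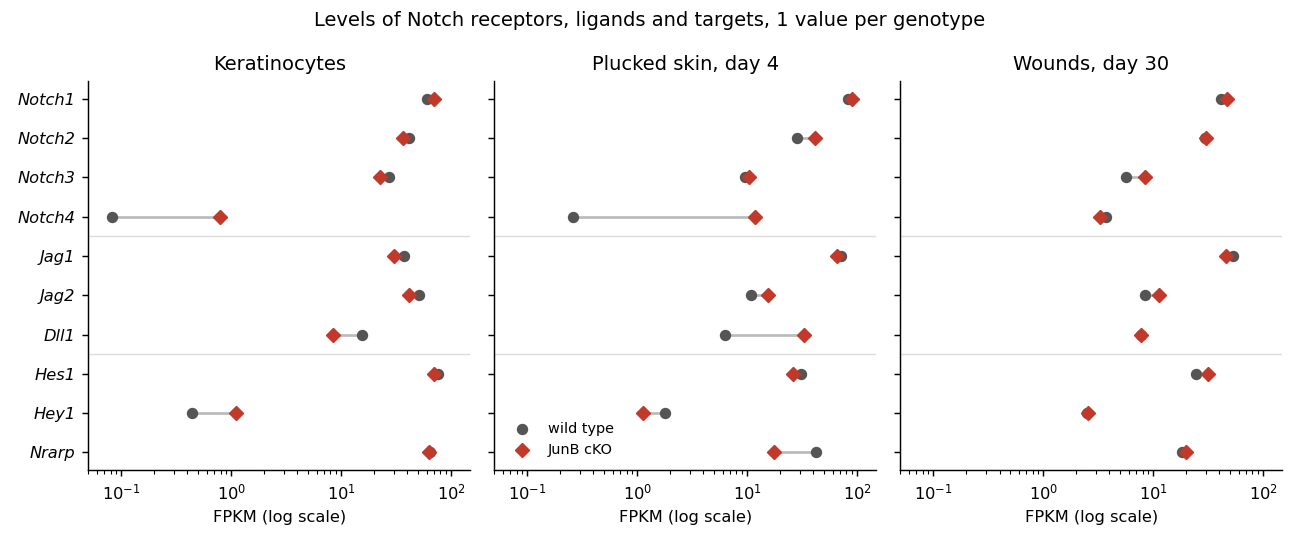
FPKM on a log axis of the 10 genes in wild type (grey circles) and JunB cKO (red diamonds) for keratinocytes, plucked skin and wounds, with 1 value per genotype. The widest gaps in plucked skin are those of Notch4 (0.261 and 11.8 FPKM) and Dll1 (6.34 and 33.0 FPKM), whereas in wounds each pair of points lies within 1.5-fold.

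The first comparison asked how the genes stood in keratinocytes of untreated skin. All but Notch4 reached 1 FPKM in at least 1 genotype, and none of the 10 genes was called. The lowest log2 ratio was that of Dll1 and the highest that of Notch4, which was close to 0 FPKM in both genotypes. Among all 15973 loci at 1 FPKM or more in either genotype, 15.4% were called higher and 1.42% lower in JunB cKO.

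Of the receptors, Notch1, the receptor most studied in epidermal differentiation, was at 61.0 FPKM in wild type against 69.6 in JunB cKO (log2 ratio 0.19). Notch2 was at 41.4 and 36.7 FPKM (log2 ratio -0.17) and Notch3 at 27.4 and 22.7 FPKM (log2 ratio -0.26). Notch1, Notch2 and Notch3 thus stood in the same order in both genotypes, and the FPKM of all 4 receptors summed to 129.9 in wild type against 129.7 in JunB cKO. Notch4 was at 0.0831 FPKM in wild type, which stands for about 7 reads, and at 0.783 in JunB cKO, about 20 reads (fold 9.42, interval 3.99 to 27.5; log2 ratio 0.72). The level of Notch4 in JunB cKO keratinocytes was in the range of genes that are used in sensory organs: the median of 1453 odorant, vomeronasal and taste receptor genes was 0 FPKM in wild type against 0.543 in JunB cKO, and 38.1% of them were at or above Notch4 in JunB cKO. The 15 blood endothelium markers summed to 1.74 FPKM in wild type against 10.2 in JunB cKO and all 15 were above a log2 ratio of 0, with Pecam1 at 0.0776 and 1.12 FPKM. With the sensory receptor median subtracted in each genotype, a step chosen after seeing the data, the log2 ratio of Notch4 was 0.19. Beyond this value, whether the sensory receptor level or the endothelial markers have a part in the Notch4 values was not tested.

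All 3 ligands had lower values in JunB cKO keratinocytes. Jag1, a ligand of the Jagged type, was at 37.7 FPKM in wild type against 30.1 in JunB cKO (log2 ratio -0.32), and Jag2 at 50.7 and 41.3 FPKM (log2 ratio -0.29). Dll1, the Delta-like ligand of basal keratinocytes, was at 15.5 FPKM in wild type, about 747 reads, and 8.39 in JunB cKO, about 118 reads. Its fold of 0.543 had a counting interval of 0.444 to 0.661, and 2.52% of all loci had a log2 ratio as low as its -0.81. With the 3 ligands summing to 104 FPKM in wild type against 79.8 in JunB cKO, Dll1 made up 14.9% and 10.5% of the sum. The median log2 ratio of the 11995 loci at 1 FPKM or more in both genotypes was -0.15, and relative to it Dll1 stood at -0.65, Jag1 at -0.16 and Jag2 at -0.14. In the same pair 5 of 6 basal keratinocyte markers were below 0 (median log2 ratio -0.24, sum 4807 and 4500.0 FPKM), down to Col17a1 at 645 and 412 FPKM. Of the 6 suprabasal markers 5 were above 0 (median log2 ratio 0.41, sum 11749 and 14682 FPKM), and Lor, a protein of the cornified envelope, was called higher at 47.0 and 213 FPKM. The part of these differences in the ligand values was not tested.

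The targets differed little. Hes1, a repressor of transcription and the most direct Notch target, was the most abundant of the 10 genes in both genotypes. It was at 76.0 FPKM in wild type against 70.1 in JunB cKO (log2 ratio -0.12). Relative to the median of the loci at 1 FPKM or more in both genotypes, Hes1 stood at 0.04. Nrarp, an ankyrin repeat protein that is induced by Notch and dampens it, was at 64.9 and 63.4 FPKM (log2 ratio -0.03, or 0.12 relative to the same median). Hey1, a relative of Hes1, was at 0.443 FPKM in wild type against 1.10 in JunB cKO, from about 14 and 10 reads, with a counting interval of the fold from 0.976 to 5.95 that includes 1. Over the 10 genes, 3 log2 ratios were above 0 and 7 below, with a median of -0.14 beside -0.03 for all loci at 1 FPKM or more in either genotype. For loci at 1 FPKM or more in both genotypes the median was -0.15, close to that of the 10 genes.

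The second comparison asked how the genes stood 4 days after hair plucking, when new hair growth is being induced. Notch4 and Dll1 were called higher and Nrarp lower in JunB cKO, so that 3 of the 10 genes, namely a receptor, a ligand and a target, were past 2-fold. Among all 16932 loci at 1 FPKM or more, 18.4% were called higher and 16.0% lower, and among the 8971 loci at 10 FPKM or more the shares were 13.2% and 12.3%. The counts of 2 higher and 1 lower among 10 genes are thus close to the background of this table. Over the 10 genes, 6 log2 ratios were above 0 and 4 below, with a median of 0.13 beside 0.03 for all loci.

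Notch4 (ENSMUSG00000015468.14, chromosome 17 of GRCm38 from 34564268 to 34588503, plus strand) was at 0.261 FPKM in wild type against 11.8 in JunB cKO, with a log2 ratio of 3.35. About 22 reads stood behind the wild type value and about 802 behind the JunB cKO value, which gives a fold of 45.4 with a counting interval of 30.3 to 74.2. A log2 ratio as high as this was found in 1.77% of all loci. Notch4 made up 0.214% of the receptor sum of 122 FPKM in wild type and 7.64% of the sum of 155 FPKM in JunB cKO. It stood lowest among the 10 genes in wild type and in the eighth place in JunB cKO, above Notch3 and Hey1. A processed pseudogene, Gm20462, lies on the opposite strand within the Notch4 locus, and the counting of strand is not given in the sources used here.

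The other receptors were closer. Notch1 was the highest of the 10 genes in both genotypes, at 83.4 FPKM in wild type against 90.6 in JunB cKO (log2 ratio 0.12), and Notch3 was at 9.52 and 10.5 FPKM (log2 ratio 0.13). Notch2 was at 28.3 and 41.8 FPKM, a fold of 1.48 with a counting interval of 1.41 to 1.54. All 4 receptors thus had a log2 ratio above 0, and 3 of them were within 2-fold.

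The markers of the blood vessel wall showed no difference of this size. Of 14 blood endothelium markers with a value, 5 were above and 9 below a log2 ratio of 0, with 0 called higher and 2 called lower, and their sum was 108 FPKM in wild type against 80.4 in JunB cKO. The defining markers Pecam1 (29.5 and 29.6 FPKM), Tie1 (log2 ratio 0.34) and Kdr (4.32 and 3.23 FPKM) were within 2-fold, and Cdh5 was at 26.0 FPKM in wild type against 10.6 in JunB cKO (log2 ratio -1.22). Robo4 was the marker listed at 0 in wild type, and none was listed at 0 in JunB cKO. The 6 mural cell markers summed to 209 FPKM in wild type against 141 in JunB cKO, with Rgs5 at 41.3 and 23.2 FPKM. The endothelial markers on the same side of 0 as Notch4 were Pecam1, Tie1, Tek, Sox18 and Robo4, with log2 ratios from 0.01 to 0.998. The part of vessel cells in the Notch4 values was not tested beyond these levels.

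**Figure D2:**
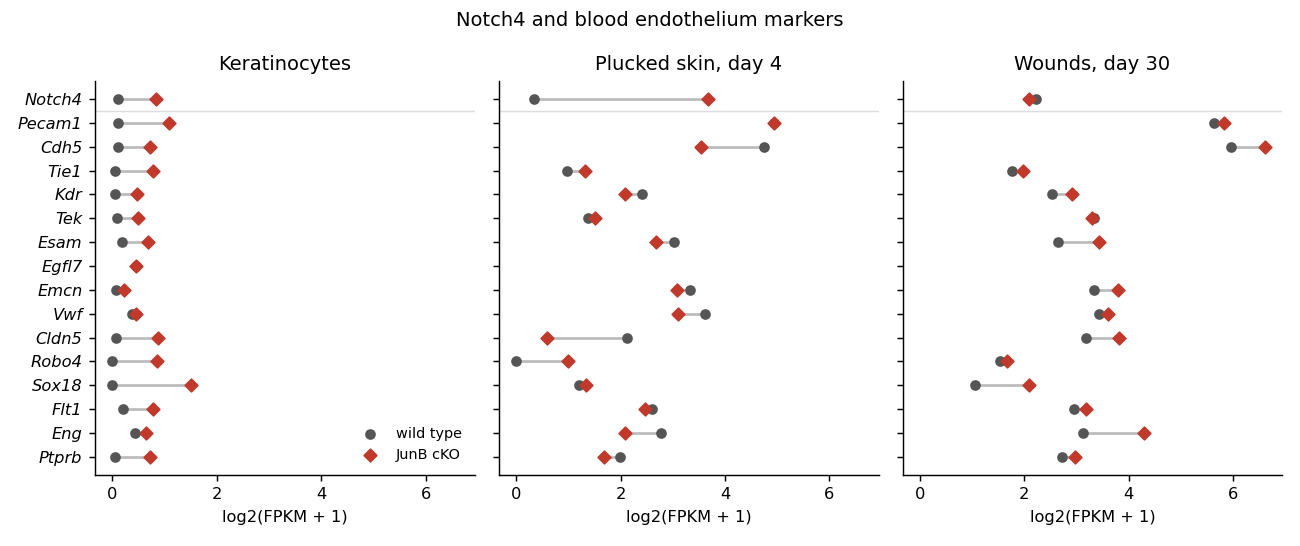
Levels as log2(FPKM + 1) of Notch4 (top row) and 15 blood endothelium markers in wild type (grey circles) and JunB cKO (red diamonds). In plucked skin Notch4 differs by 3.35 on this scale while the markers range from -1.54 (Cldn5) to 0.998 (Robo4), and Egfl7 has no value of its own in plucked skin and wounds because its locus carries several symbols.

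The genes whose 6 values were most like those of Notch4, by the Euclidean distance of log2(FPKM + 1) among 15546 genes, were Mns1 (distance 0.58), Dhx58 (0.68), Uox (0.83), Pam16 (0.93) and 9030624G23Rik (0.96). In plucked wild type skin Mns1 was at 0.0613 FPKM and the other 4 were listed at 0, whereas in JunB cKO they were at 10.9, 12.8, 9.43, 12.2 and 6.69 FPKM, respectively. In plucked skin, 226 of 46036 genes were under 0.5 FPKM in wild type and at 10 FPKM or more in JunB cKO, of which 207 were listed at 0 in wild type, and 131 genes showed the reverse. In keratinocytes there were 39 genes of the first kind and 34 of the second. A listing at 0 may be a failed estimate, also for the nearest genes such as Pam16, which encodes a part of the mitochondrial protein import motor, so these counts are not counts of genes that are silent. Notch4 and Mns1 had wild type values above 0, and whether these low values are accurate estimates was not tested.

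Among the ligands, Dll1 (ENSMUSG00000014773.13, chromosome 17 from 15367354 to 15376872, minus strand) was at 6.34 FPKM in wild type against 33.0 in JunB cKO, with a log2 ratio of 2.21. The values stand for about 296 and 1215 reads and give a fold of 5.20 with a counting interval of 4.58 to 5.93. In all, 5.19% of the loci had a log2 ratio as high. Jag1 was at 70.7 and 65.8 FPKM (log2 ratio -0.10) and Jag2 at 10.8 and 15.5 FPKM (log2 ratio 0.48, fold 1.43). Jag1 remained the most abundant ligand, but its part of the ligand sum was 80.4% in wild type against 57.6% in JunB cKO, while that of Dll1 was 7.22% and 28.9%. The lincRNA A930024N18Rik overlaps the Dll1 locus on the opposite strand. The locus used for Dll1 reached from 15367354 to 15379475 in plucked skin and wounds and from 15367354 to 15375823 in keratinocytes.

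Among the targets, Nrarp (ENSMUSG00000078202.3, chromosome 2 from 25180758 to 25183339, plus strand, a gene of 1 exon) was at 42.7 FPKM in wild type against 17.6 in JunB cKO, with a log2 ratio of -1.23. About 1439 and 467 reads stood behind these values, with a fold of 0.412 and a counting interval of 0.370 to 0.457. As many as 11.8% of all loci had a log2 ratio as low. Hes1 was at 30.6 and 26.3 FPKM (log2 ratio -0.21) and Hey1 at 1.79 and 1.12 FPKM (log2 ratio -0.40), so that all 3 targets were below 0 while all 4 receptors were above. For Hey1 the values rest on about 57 and 28 reads. The antisense gene Gm38287 overlaps Nrarp.

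**Figure D3:**
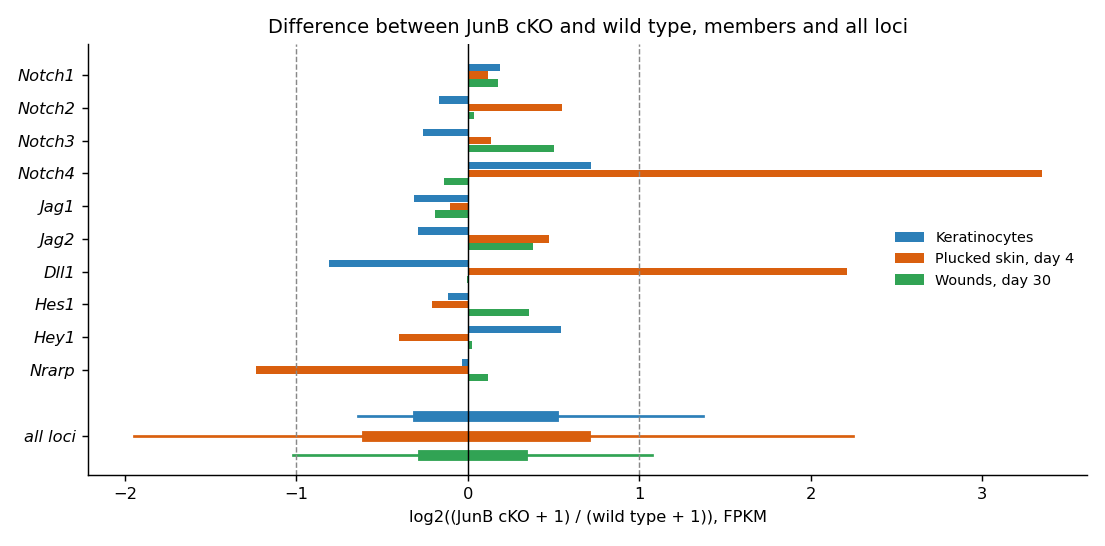
Bars give log2((JunB cKO + 1)/(wild type + 1)) of the FPKM for each gene in keratinocytes (blue), plucked skin (orange) and wounds (green), and dashed lines mark 2-fold. The bottom rows give all loci at 1 FPKM or more, with a thick line between the quartiles and a thin line from the 5th to the 95th percentile. The thin line reaches from -1.95 to 2.24 in plucked skin and from -1.02 to 1.07 in wounds.

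Markers of several other cell types differed in plucked skin together with Notch4, Dll1 and Nrarp. The 6 markers of the hair matrix and shaft list summed to 38.2 FPKM in wild type against 279 in JunB cKO, with 4 of 6 called higher. Most of the sum came from Krt25 (5.28 and 98.5 FPKM) and Krt71 (26.1 and 168 FPKM), which are keratins of the inner root sheath. Msx2 was within 2-fold (log2 ratio 0.48), and Hoxc13 was at 5.34 and 2.71 FPKM (log2 ratio -0.77). All 6 fibroblast markers were below 0 (sum 5109 and 1856 FPKM, 3 called lower; Col1a1 at 1168 and 527 FPKM), as were the 5 skeletal muscle markers with a value (sum 205 and 31.8 FPKM, 4 called lower; Ckm at 21.7 and 2.15 FPKM). Leukocyte markers summed to 390.2 and 172 FPKM with 4 of 6 called lower, such as Ptprc at 25.7 and 10.3 FPKM, and adipocyte markers to 147 and 52.2 FPKM with 2 called lower and 1 higher. Of the basal keratinocyte markers 5 of 6 were above 0, such as Krt5 at 614 and 845 FPKM, but their sum was 3522 and 3320.3 FPKM because Krt14, the most abundant, was at 2446 and 1709 FPKM (log2 ratio -0.52). All 6 suprabasal markers were above 0 (sum 13399.8 and 17229 FPKM; Krt1 at 805 and 1298 FPKM). Melanocyte markers summed to 44.7 and 65.8 FPKM, with 3 of 6 called higher. The part of these differences in the Notch values was not tested.

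**Figure D4:**
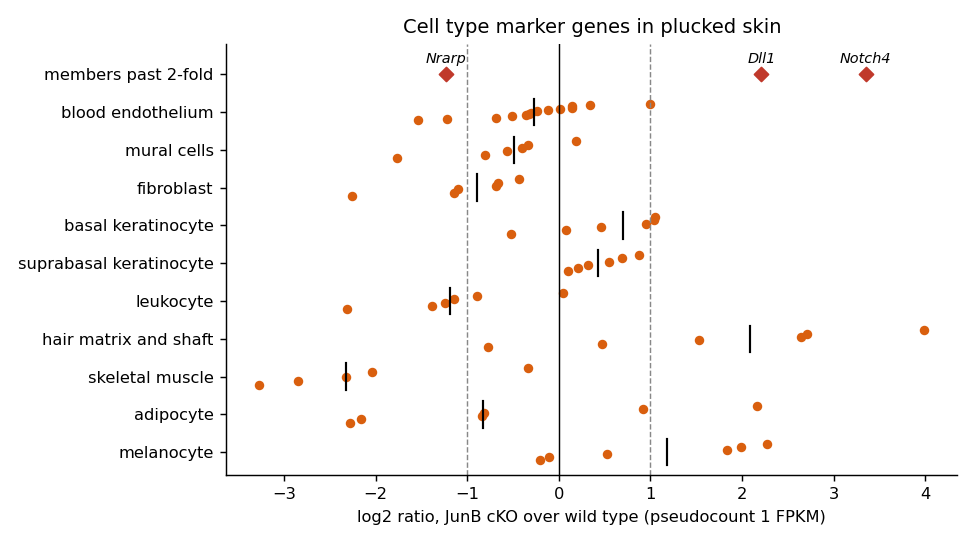
Each orange point is the log2 ratio of JunB cKO over wild type (pseudocount 1 FPKM) of a marker gene in plucked skin, black ticks are the medians of the lists, and red diamonds are the genes of interest past 2-fold. Fibroblast and skeletal muscle markers lie below 0, with medians of -0.89 and -2.32. The hair matrix and shaft list, which includes inner root sheath keratins, has a median of 2.08.

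The third comparison concerned wounds at day 30. None of the 10 genes was called, and the log2 ratios ranged from -0.19 to 0.50. Among all 17787 loci at 1 FPKM or more, 5.68% were called higher and 5.19% lower in JunB cKO. In all, 7 log2 ratios were above 0 and 3 below, with a median of 0.08 beside 0.01 for all loci.

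Notch3 had the highest log2 ratio of the 10 genes in wounds, with 5.65 FPKM in wild type against 8.40 in JunB cKO (log2 ratio 0.50, fold 1.49, counting interval 1.39 to 1.59). In the same table the 6 mural cell markers were all above 0 and summed to 216 and 252 FPKM, with Rgs5 at 44.9 and 50.4 FPKM. Their part in the Notch3 value was not tested. Notch1 was at 41.7 and 47.2 FPKM (log2 ratio 0.17) and Notch2 at 29.7 and 30.5 FPKM (log2 ratio 0.04). Notch4 was at 3.69 FPKM in wild type against 3.26 in JunB cKO (about 840 and 693 reads, log2 ratio -0.14), while 13 of 14 blood endothelium markers were above 0 and their sum was 182 and 257 FPKM. The part of the endothelial markers in the Notch4 value was not tested. Melanocyte markers summed to 269.7 and 156 FPKM in wounds with all 6 below 0, and fibroblast markers to 10532 and 13412 FPKM. Markers of the hair matrix and shaft list summed to 2935 and 2248 FPKM, mostly from the inner root sheath keratins Krt25 and Krt71.

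The ligand with the highest level in wounds was Jag1, at 52.7 FPKM in wild type against 46.0 in JunB cKO (log2 ratio -0.19), followed by Jag2 at 8.49 and 11.3 FPKM (log2 ratio 0.38). Dll1 was at 7.76 and 7.72 FPKM (log2 ratio -0.01, about 960 and 892 reads), with a counting interval of the fold from 0.907 to 1.09 that includes 1. Jag1 was below 0 in each of the 3 tables. Of the targets, Hes1 was at 24.6 and 31.8 FPKM (log2 ratio 0.36) and Nrarp at 18.2 and 19.8 FPKM (log2 ratio 0.12). Hey1 was at 2.49 and 2.55 FPKM (log2 ratio 0.02), with a counting interval of the fold from 0.839 to 1.25 that includes 1. Hes1 and Nrarp were thus above 0 in wounds and below 0 in plucked skin, and this contrast was not tested. The median log2 ratio of all loci at 1 FPKM or more in either genotype was 0.01 in wounds and 0.03 in plucked skin.

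The order of the 10 genes by FPKM was similar in wild type and JunB cKO in keratinocytes (Spearman 0.988) and wounds (0.964) and less so in plucked skin (0.758), as a description over 10 genes that share their libraries. In wild type keratinocytes the order was Hes1, Nrarp, Notch1, Jag2, Notch2, Jag1, Notch3, Dll1, Hey1 and Notch4. In plucked skin Notch1, Jag1, Nrarp, Hes1, Notch2, Jag2, Notch3, Dll1, Hey1 and Notch4 followed each other in wild type, and in wounds Jag1, Notch1, Notch2, Hes1, Nrarp, Jag2, Dll1, Notch3, Notch4 and Hey1. In JunB cKO plucked skin Dll1 stood in the fourth place (the eighth in wild type) and Nrarp in the sixth (the third in wild type). With 1 value per genotype, no neighbours in these orders can be told apart beyond counting error.

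The other genes of the pathway were taken from a list of 67 ligands, processing proteases, glycosyltransferases, members of the nuclear complex, corepressors, regulators of endocytosis and turnover, and further targets. In keratinocytes all 67 had a value and 59 reached 1 FPKM in either genotype. Of the 67, 24 were above and 43 below a log2 ratio of 0, with a median of -0.11. Of the 59 genes at 1 FPKM or more, 5 were called higher and 0 lower, beside 15.4% and 1.42% of all loci at 1 FPKM or more. The called genes were the ligands Dll3 and Dlk1, the ubiquitin ligase gene Neurl1a and the targets Heyl and Hes7, and none of them exceeded 2.89 FPKM, beside a median of the sensory receptor genes of 0 FPKM in wild type against 0.543 in JunB cKO. Hes7, for instance, was at 0.0775 FPKM in wild type against 2.89 in JunB cKO. The nuclear complex lay slightly lower in JunB cKO, with 7 of 8 genes below 0 and a median of -0.29, from Kat2b (9.81 and 6.69 FPKM) to Rbpj (6.09 and 6.31 FPKM). Below 0 were also most processing proteases (7 of 10, from Aph1b at -0.60 to Aph1a at 0.12), all 5 glycosyltransferases (from Mfng at -0.45 to Rfng at -0.01) and 8 of 10 corepressors (from Tle1 at -0.44 to Hdac1 at 0.18), as log2 ratios. The lowest log2 ratio was that of the ubiquitin ligase gene Dtx3 (9.67 and 5.06 FPKM, log2 ratio -0.82). Against the median of -0.15 for loci at 1 FPKM or more in both genotypes, the groups that lay mostly below 0 were not far from the table as a whole. The other ligands lay mostly above 0 (6 of 7, median log2 ratio 0.69), but 4 of the 7 reached 1 FPKM. Of the further targets 7 of 13 were above 0, with a median of 0.22, or -0.08 for those at 1 FPKM or more.

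In plucked skin, 64 of the 67 genes had a value, 33 were above and 26 below 0, and 5 were equal, with a median of 0.03. Of the 64, 54 reached 1 FPKM in either genotype. Of these 54 genes, 8 were called higher and 3 lower, beside 18.4% and 16.0% of all loci at 1 FPKM or more. The DNA-binding partner of all Notch receptors, Rbpj, was at 23.2 FPKM in wild type against 8.77 in JunB cKO (log2 ratio -1.31), while the coactivator Maml2 was at 1.80 and 5.72 FPKM (log2 ratio 1.26). Furin, the protease that processes Notch precursors, was at 33.1 and 83.6 FPKM (log2 ratio 1.31), and Poglut1, which puts glucose on the receptors, at 6.27 and 25.1 FPKM (log2 ratio 1.85). The lowest of the processing proteases was Adam17, which sheds the receptor ectodomain, at 55.3 and 33.0 FPKM (log2 ratio -0.73). The nuclear complex thus held genes past 2-fold in both directions.

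Of the corepressors in plucked skin, Tle3 was at 33.1 FPKM in wild type against 110.3 in JunB cKO (log2 ratio 1.71), and 7 of 9 genes with a value were above 0, down to Cir1 at 20.3 and 12.7 FPKM (log2 ratio -0.64). Of the 12 further targets with a value, 6 were above 0, 2 below and 4 listed at 0 in both genotypes, and the median log2 ratio of those at 1 FPKM or more was 0.65. Heyl, a relative of Hey1, was at 2.36 and 11.2 FPKM (log2 ratio 1.86), Cdkn1a, the gene of the cell cycle inhibitor p21, at 15.3 and 42.1 FPKM (log2 ratio 1.40), and Hes6, which counteracts Hes1, at 4.85 and 0.958 FPKM (log2 ratio -1.58). The cell cycle genes Ccnd1 (16.4 and 30.4 FPKM, log2 ratio 0.85) and Myc (11.9 and 17.3 FPKM, log2 ratio 0.50), Mesp2 (0.492 and 1.60 FPKM, log2 ratio 0.80) and Ccnd3 (39.6 and 41.5 FPKM, log2 ratio 0.07) were within 2-fold. Most further targets with a value above 0 thus lay on the opposite side of 0 from Hes1, Hey1 and Nrarp. The quartiles of all loci at 1 FPKM or more in this table were -0.59 and 0.68, and the contrast between the targets was not tested. The ubiquitin ligase gene Dtx1 was at 0.188 and 2.75 FPKM (log2 ratio 1.66), and the inhibitory ligand Dlk1 at 2.61 FPKM in wild type, with a value of 0 listed for JunB cKO. Psenen was listed at 0 in wild type and was at 5.83 FPKM in JunB cKO, although it encodes a subunit of gamma-secretase, and its listing at 0 may be a failed estimate, so that no fold is given.

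In wounds, 64 genes had a value and 56 reached 1 FPKM in either genotype. Of the 64, 28 were above and 34 below 0, with a median of -0.00. In either direction 0 were called, beside 5.68% of all loci at 1 FPKM or more called higher and 5.19% lower. The log2 ratios reached from -0.73 for the ligand Dlk2 (2.30 and 0.987 FPKM) to 0.91 for Psenen (7.57 and 15.1 FPKM). Rbpj was at 33.4 and 30.5 FPKM (log2 ratio -0.13) and Heyl at 2.29 and 2.04 FPKM (log2 ratio -0.11), both well within 2-fold. All 5 glycosyltransferases were above 0, from Poglut1 (13.8 and 15.5 FPKM) to Mfng (1.60 and 2.48 FPKM). Elsewhere the groups spread around 0, as the nuclear complex did from Kat2b (log2 ratio -0.14) to Ep300 (0.66), the corepressors from Hdac2 (-0.69) to Tle1 (0.62), the regulators of turnover from Numb (-0.26) to Mib2 (0.70) and the targets from Hey2 (-0.18) to Myc (0.72).

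**Figure D5:**
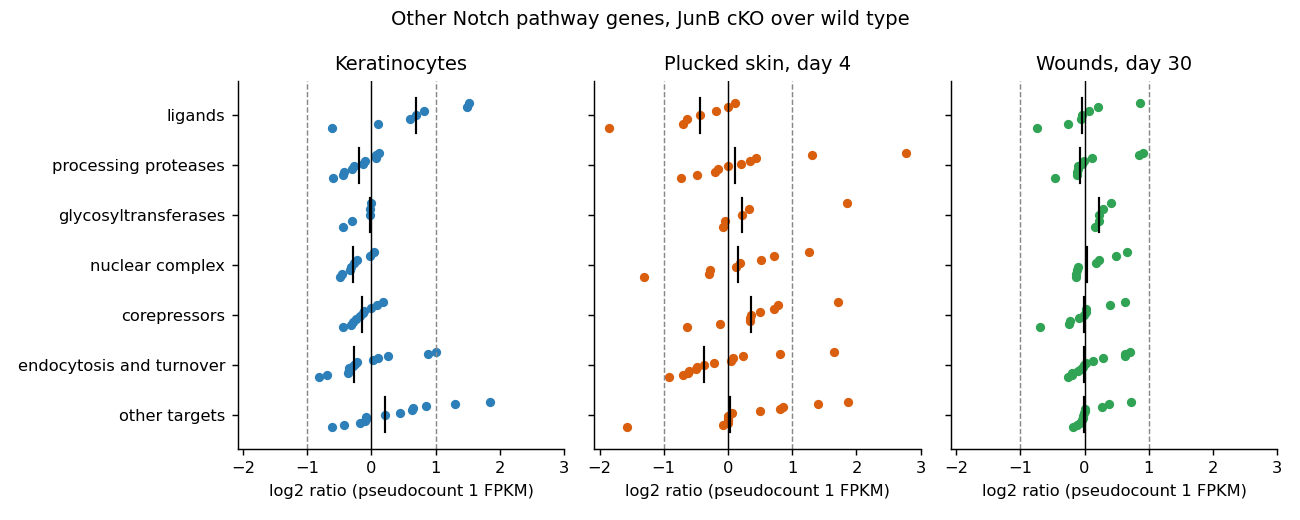
Each point is the log2 ratio of JunB cKO over wild type (pseudocount 1 FPKM) of another Notch pathway gene, grouped by role, in keratinocytes, plucked skin and wounds, with black ticks at the group medians and dashed lines at 2-fold. Plucked skin has 8 genes past the upper and 3 past the lower line, and wounds have 0.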

How the data were processed

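The authors pooled total RNA of 3 samples per group, depleted rRNA, sequenced stranded single-end libraries, mapped the filtered reads to GRCm38 by TopHat or HISAT2, and ran Cufflinks and Cuffdiff. The deposited tables hold 1 FPKM value per locus and genotype, as calculated by the authors. They also hold the authors' log2 fold changes, p-values and q-values, which were not used. Columns were assigned by their names (KO or Mut for JunB cKO), and the condition of the plucked and wound tables comes from the names of the tables. The wound table does not separate its 2 libraries per genotype.

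For symbols with more than 1 locus, that of the highest FPKM sum over both genotypes was taken. Log2 ratios had a pseudocount of 1 FPKM, and the limit was 2-fold. Background shares were taken over loci at 1 FPKM or more in either genotype. Reads per FPKM were estimated from loci of 700 to 3000 bp. The calculations were tested on simulated data. The 10 genes and all lists were chosen with earlier results of these data known, and the study itself singled out Notch signaling in these libraries, so that no count is independent evidence of a direction.

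Genes were named from the 10 genes, Junb, other pathway genes past 2-fold or at the ends of their group, the first 4 markers of each list, and the 5 genes nearest to Notch4. Further markers and genes (Robo4, Cldn5, Egfl7, Tek, Sox18, Col17a1, Lor, Cd74, Hoxc13, Ccnd1, Ccnd3, Myc and Mesp2 in plucked skin or keratinocytes, and Heyl and Rbpj in wounds) were named after their values had been seen. Coordinates and identifiers are from GENCODE M21. Python 3.11.15 was used with pandas 2.3.3, numpy 2.4.6, scipy 1.17.1 and matplotlib 3.10.9.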

Additional observations from a re-analysis of the deposited data

Results flagged for a closer look

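The log2 ratio of Notch4 was 3.35 in plucked skin and -0.14 in wounds, so that JunB cKO was higher in the first and lower in the second. The log2 ratio of Dll1 was 2.21 in plucked skin, -0.81 in keratinocytes and -0.01 in wounds, and the wound values of 7.76 and 7.72 FPKM differ by less than counting error. The log2 ratio of Nrarp was -1.23 in plucked skin and 0.12 in wounds. Each drew attention because the genotypes differ past 2-fold in plucked skin and lie on the other side of 0 in another table. With 1 value per genotype and table, none of these differences between conditions was tested.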

How the results depend on the processing

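The counts of genes called in plucked skin (2 higher, 1 lower) and in wounds (0 and 0) were the same under every alternative run, namely pseudocounts of 0.1 and 0.01, centring on the median of loci at 1 FPKM or more in both genotypes, summing the loci of a symbol, a 1.5-fold limit, a minimum of 1 FPKM and, chosen after seeing the data, subtraction of the median of sensory receptor genes. In keratinocytes the count called higher was 2 with a pseudocount of 0.1 and 2 with 0.01, where the low values of Notch4 and Hey1 enter, and 1 at a 1.5-fold limit, at which 1 gene was also called lower. Centring moved the keratinocyte median of the 10 genes to 0.0115 and that of the other pathway genes to 0.0437, and subtraction of the sensory receptor median moved the latter to -0.24. Of 150 recomputed log2 ratios of single genes, 140 stayed within counting error, 10 moved, and 2 took the other sign, those of Hes1 and Nrarp in keratinocytes under centring. The log2 ratio of Notch4 in plucked skin was 5.05 with a pseudocount of 0.1 and 5.45 with 0.01. Without a minimum FPKM, the shares of all loci called higher and lower were 9.31% and 0.858% in keratinocytes, 6.50% and 5.65% in plucked skin, and 2.16% and 1.98% in wounds. The minimum of 10 FPKM in plucked skin was also chosen after seeing the data. No paired analysis was possible because the wound table gives 1 value per genotype and does not separate the numbered libraries, so leaving out a replicate and the replicate block were not run. Depth limits Notch4 and Hey1 in keratinocytes, with 20 reads or fewer.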
